A study of Homo sapiens with 2 samples.

Results

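The 10 genes described here are the metallothioneins MT1A, MT1E, MT1F, MT1G, MT1H, MT1L, MT1M, MT1X and MT2A and the gene of the transcription factor MTF1. They were chosen by name, from 55773 gene names in the tables. RNA was measured in BFTC 905, an established human bladder cancer cell line in which ANGPTL4 is low according to the labels. Of the 2 libraries, the vector control library came from cells transfected with the empty plasmid pcDNA3.1-myc-His (-) A, and the ANGPTL4 library from cells transfected with a plasmid that overexpresses ANGPTL4, a secreted inhibitor of lipoprotein lipase. Both lines were stable clones kept under G418 at 400 ug/ml in medium with 10% serum. The labels do not say how many clones each line held, how long selection lasted, or which promoter drove ANGPTL4. With 1 library per group there is no replicate check and no test between groups, and what follows describes a pair of libraries rather than the conditions.

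Metallothioneins are small proteins, rich in cysteine, whose thiol groups bind zinc and copper and also toxic metals such as cadmium. MTF1 is a zinc finger protein that senses free zinc and activates metallothionein genes and the zinc exporter gene SLC30A1 through short metal response elements in their promoters. Metallothionein genes also respond to glucocorticoids and to oxidative stress, and in epithelial cells MT2A and MT1X are usually the most abundant forms.

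The coding sequences of the most abundant members are shown because their likeness bears on every value below. They are from GENCODE release 29 (GRCh38), from the start to the stop codon, with cysteine codons in capitals.
MT2A: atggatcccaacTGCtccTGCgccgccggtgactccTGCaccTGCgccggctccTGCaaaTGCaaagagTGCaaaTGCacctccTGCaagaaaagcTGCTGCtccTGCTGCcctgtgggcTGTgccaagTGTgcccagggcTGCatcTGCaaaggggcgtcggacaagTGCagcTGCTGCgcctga
MT1X: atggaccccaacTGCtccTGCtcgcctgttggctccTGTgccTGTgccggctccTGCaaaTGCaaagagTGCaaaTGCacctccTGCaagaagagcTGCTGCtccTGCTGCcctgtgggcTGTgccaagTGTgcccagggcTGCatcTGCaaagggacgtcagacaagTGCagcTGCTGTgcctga
MT1E: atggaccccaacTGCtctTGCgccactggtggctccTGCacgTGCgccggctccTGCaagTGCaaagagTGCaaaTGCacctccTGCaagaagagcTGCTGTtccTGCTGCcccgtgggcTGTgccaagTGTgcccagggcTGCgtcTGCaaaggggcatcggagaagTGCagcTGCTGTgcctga
The coding sequence was 186 bases long in each of the 8 metallothioneins with an annotated one, and 20 of the 61 amino acid codons, or 32.8%, encoded cysteine. MT1L is annotated as a pseudogene and was not part of this comparison. Over the 28 pairs of these genes the coding sequences were between 88.7% and 95.2% identical. MT2A and MT1X differed at 14 bases and MT2A and MT1E also at 14. MTF1, by contrast, had 753 codons, of which 21, or 2.79%, encoded cysteine.

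The transcripts also hold sequence outside the coding part. Of all 50-base windows in the annotated transcripts of MT2A, 3.02% also stood in a transcript of another gene. The share was 18.3% for MT1X, 7.10% for MT1E, 5.76% for MT1A, 1.22% for MT1F and 0.891% for MTF1. The GENCODE gene that shared the most windows with MT1X was AC026461.1. A row of that name was listed at 0 in both libraries, but in hg19 it overlapped MT1M rather than MT1X. Whether the name stands for the same gene in both sources was not tested. With windows of 75 bases the share was 14.3% for MT1X and 1.42% for MT1E, and none of 1446 windows was shared for MT2A. The read length and the treatment of reads that match several genes are not given in the sources used here, so part of the reads of each metallothionein, and of MT1X more than of MT2A, could belong to another row.

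Promoters of 4 of the 10 members were found in the RefSeq table (GRCh38.p14), namely MT2A, MT1X, MT1H and MTF1; MT1A, MT1E, MT1F, MT1G, MT1L and MT1M were not matched. The 250 bases before the start site are shown for the most abundant member, for the member with the lowest ratio of levels and for a member listed at 0. Capitals mark the core of the metal response element, searched as TGCACNC and TGCGCNC on both strands, where matches that overlap each other were all counted.
MT2A, chr16:56608334-56608583, + strand: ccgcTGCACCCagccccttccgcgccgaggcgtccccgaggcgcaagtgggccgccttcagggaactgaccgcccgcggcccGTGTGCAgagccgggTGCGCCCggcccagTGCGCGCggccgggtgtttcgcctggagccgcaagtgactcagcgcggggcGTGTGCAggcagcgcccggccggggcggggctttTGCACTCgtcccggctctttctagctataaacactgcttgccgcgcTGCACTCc
MT1X, chr16:56682220-56682469, + strand: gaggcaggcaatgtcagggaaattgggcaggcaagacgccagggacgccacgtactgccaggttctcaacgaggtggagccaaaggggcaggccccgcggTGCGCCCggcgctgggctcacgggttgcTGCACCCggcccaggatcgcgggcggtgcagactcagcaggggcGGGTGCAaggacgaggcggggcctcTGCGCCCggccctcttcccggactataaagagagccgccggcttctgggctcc
MT1H, chr16:56669564-56669813, + strand: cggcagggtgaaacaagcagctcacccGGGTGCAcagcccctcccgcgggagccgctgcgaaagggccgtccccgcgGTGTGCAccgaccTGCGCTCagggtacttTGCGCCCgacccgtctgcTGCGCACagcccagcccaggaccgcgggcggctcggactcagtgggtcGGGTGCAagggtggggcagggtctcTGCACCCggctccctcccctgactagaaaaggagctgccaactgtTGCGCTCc
The core was matched 7 times upstream of MT2A, 4 times upstream of MT1X and 8 times upstream of MT1H. It was not matched in the same window of MTF1 (chr1:37859593-37859842, - strand). Among 35116 promoter windows of the same length, several of which can belong to 1 gene, 24.8% held at least 1 match, 0.370% held at least as many as MT1X and 0.0313% at least as many as MT2A. MT1H, with the most matches of the 4, was listed at 0 in both libraries. TATAAA was matched once each in MT2A and MT1X and not in MT1H or MTF1, and was held by 10.7% of all windows. TGACNNNGC, the core of the antioxidant response element, was matched once each in MT2A and MT1X, and in 10.9% of all windows.

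Levels are in RPKM as the authors deposited them, which are reads scaled to exon length and to library depth. For MT2A and MT1A the lengths that fit were those of all annotated exons together, 1299 and 396 bases. Levels compared between genes, and shares within the family, therefore depend on the annotated length too. From the steps between RPKM values, the totals were taken as 6572767 reads in the vector control library and 3233596 in the ANGPTL4 library, the smallest searched that fit. The ratio between these totals was 2.03, so at these totals values of the ANGPTL4 library are less precise. Intervals are exact 95% intervals from the recovered reads and cover counting error only. Log2 ratios are of (RPKM + 1), ANGPTL4 library over vector control library, and understate differences of low genes. A gene was called measured with at least 1 RPKM in a library, which 11802 genes reached, and the size rule was a 2-fold difference on the log2(RPKM + 1) scale. Over all measured genes the log2 ratio had a median of -0.11. By the size rule 226 genes were lower and 141 higher in the ANGPTL4 library, so 61.6% of those past it were lower; this share was 43.3% after centring on the median gene and 76.0% after rescaling to a fixed total. ANGPTL4 itself was at 3.92 RPKM with empty vector and 91.2 RPKM in the library labelled as overexpressing it. Of 16 urothelial and epithelial markers 12 were measured, with a summed level of 1662 RPKM with empty vector and 1610 RPKM with ANGPTL4. The highest of the list were the keratin genes KRT5, at 434.2 and 468.9 RPKM, and KRT19, at 422.0 and 397.3 RPKM. The markers KRT20, FOXA1 and UPK1A were below 1 RPKM in both libraries, and UPK3A was listed at 0. Markers of fibroblasts, endothelium, leukocytes and hepatocytes were low, with 1 of 8, 1 of 5, 3 of 6 and 1 of 4 measured, and COL3A1, DCN, LUM, PDGFRA, TEK, CD3E, ALB and TF at 0 in both libraries. The highest of these was the lysosomal protein gene CD68 at 17.1 and 18.0 RPKM. In such bulk RNA, fewer cells of a kind and less RNA per cell cannot be told apart.

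MT2A carried most metallothionein RNA, and MT1X differed most between the libraries. Of the 9 metallothioneins, 5 were measured, namely MT2A, MT1X, MT1E, MT1F and MT1A, and the other 4 had at most 1 read in a library. Of the measured 5, 4 were below their control value in the ANGPTL4 library, where 64.4% of all measured genes were, and 1, MT1A, was above it, against 35.6% of all. Only MT1X, or 1 of the 5, was at least 2-fold lower, against 1.91% of all measured genes. None was at least 2-fold higher, against 1.19% of all. The median log2 ratio of the 5 was -0.33. For MTF1 the counting interval of the ratio included 1.

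**Figure D1:**
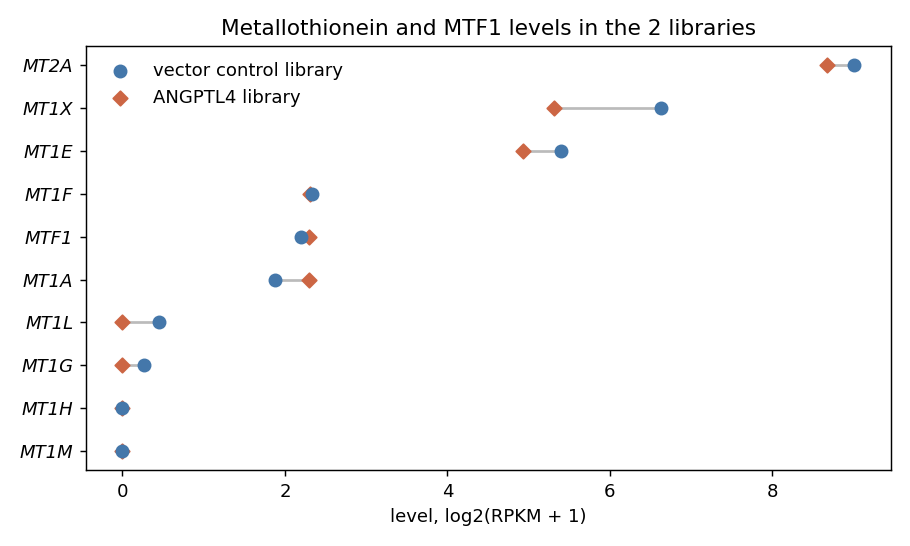
Level of each member as log2(RPKM + 1), with 1 point per library and a grey line joining the points of a gene. MT2A, MT1X and MT1E stand above all other members in both libraries, and the widest gap between the libraries is that of MT1X, at 98.2 and 38.7 RPKM.

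MT2A (chromosome 16, 56642111 to 56643409 in hg19) was at 512.4 RPKM with empty vector, from 4375 reads. With ANGPTL4 it was at 407.8 RPKM, from 1713 reads. The value was lower in the ANGPTL4 library, and the counting intervals of the levels, 497.3 to 527.8 RPKM and 388.7 to 427.6 RPKM, did not overlap. The ratio was 0.796 (0.752 to 0.842), or -0.33 on the log2 scale. MT2A held position 38 of the 11802 measured genes by level in the control and position 46 in the ANGPTL4 library, so it stayed among the most abundant transcripts. Its log2 ratio was not far from the bulk of genes, since 24.9% of measured genes had a lower one. The size of the ratio depended on scaling: after upper-quartile scaling the log2 ratio was -0.17, and after rescaling to a fixed total it was -0.50.

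MT1X (chromosome 16, 56716336 to 56718108) was at 98.2 RPKM with empty vector and 38.7 RPKM with ANGPTL4. The level in the ANGPTL4 library was thus lower, with intervals of 92.3 to 104.2 RPKM and 33.6 to 44.4 RPKM that lay far apart. The ratio was 0.394 (0.338 to 0.458), or -1.32 on the log2 scale. At the exon length nearest to GENCODE these values are 1062 and 206 reads, but a length of 823 bases, which gives 531 and 103 reads, satisfied the steps as well and widens the interval to 0.316 to 0.488. Only 64 of the 11802 measured genes, or 0.542%, had a lower log2 ratio than MT1X. Among measured protein-coding genes, 12.1% of those with up to 1000 bases of exon and 0.369% of those over 6000 bases were at least 2-fold lower, and of the 472 with 1500 to 2000 bases 3.81% were 2-fold lower and 0.847% 2-fold higher. Within that length class 3 other genes had a lower log2 ratio than MT1X, or 0.637% of them. This rank depends on the exon length taken: at 823 bases MT1X would fall in the class up to 1000 bases, where 8 of 140 genes, or 5.71%, were lower, a setting chosen after seeing the data. In the order of levels MT1X went from position 280 in the control to position 809 in the ANGPTL4 library. Its log2 ratio stayed at or below -1.16 under every scaling, pseudocount and length class tried.

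MT1E (chromosome 16, 56659387 to 56661024) was at 41.2 RPKM in the control, from 285 reads, and at 29.4 RPKM in the ANGPTL4 library, from 100 reads. Here too the ANGPTL4 library was lower, and the intervals of 36.6 to 46.3 RPKM and 23.9 to 35.8 RPKM did not overlap. The ratio of 0.713 (0.562 to 0.899) included that of MT2A in its interval. MT1E was at -0.47 on the log2 scale and therefore inside the 2-fold limit. That value ran from -0.64 to -0.32 over the alternatives. Of all measured genes 14.2% had a lower log2 ratio, and of the protein-coding genes in its exon length class 30.5%.

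The 2 remaining measured members were low. MT1F (chromosome 16, 56691606 to 56694610) was at 4.05 RPKM with empty vector and 3.96 RPKM with ANGPTL4, from 54 and 26 reads at the exon length nearest to GENCODE. The intervals overlapped, with a ratio of 0.979 (0.588 to 1.59, or 0.464 to 1.96 at the smallest exon length allowed), and the log2 ratio ran from -0.16 to 0.13 over the alternatives. MT1A (chromosome 16, 56672578 to 56673999) was at 2.69 and 3.90 RPKM, from 7 and 5 reads. It was the only metallothionein with a higher value in the ANGPTL4 library, but the ratio of 1.45 had an interval of 0.363 to 5.31, so no difference in either direction was detectable at this depth.

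MT1G, MT1L, MT1H and MT1M were at or below the detection limit. MT1G was at 0.203 RPKM in the control, which is 1 read, and was listed at 0 in the ANGPTL4 library. MT1L, likewise with 1 read in the control, was at 0.370 RPKM there and listed at 0 in the other library. Such values are within the 3 reads that a count of 0 allows, which correspond for MT1G to 0.609 RPKM with empty vector and 1.24 RPKM with ANGPTL4 and for MT1L to 1.11 and 2.26 RPKM. MT1H and MT1M were listed at 0 in both libraries. With GENCODE exon lengths, levels of up to 0.631 and 1.28 RPKM for MT1H and up to 0.485 and 0.985 RPKM for MT1M would still be allowed. These 4 genes had no level above this limit in either library, and no ratio is given for them.

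**Figure D2:**
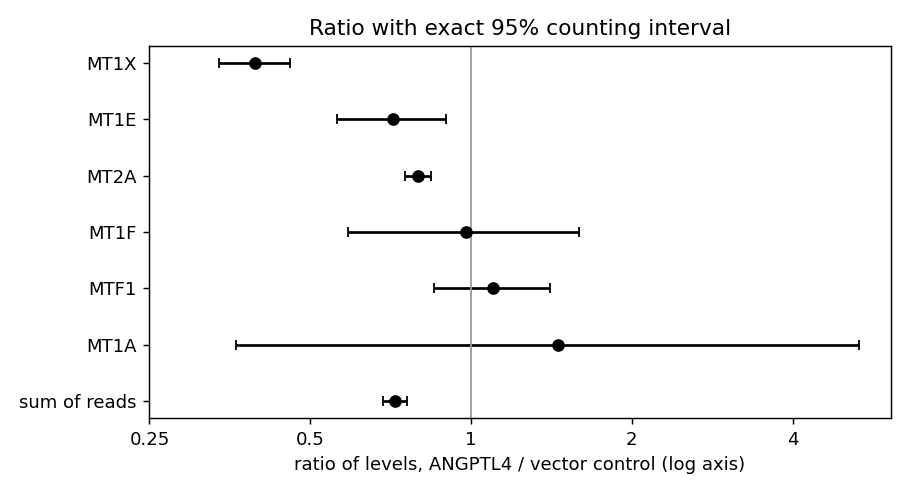
Ratio of levels, ANGPTL4 library over vector control library, on a log axis for the 6 measured members and for the summed reads of the 9 metallothioneins, with exact 95% counting intervals. Reads are those at the exon lengths nearest to GENCODE. The intervals of MT1X, MT1E and MT2A lie below 1, those of MT1F, MTF1 and MT1A include 1, and the interval of MT1X, 0.338 to 0.458, overlaps that of MT1A and no other.

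MTF1 (chromosome 1, 38275239 to 38325292), the activator of the family, was at 3.58 RPKM in the control, from 189 reads, and at 3.93 RPKM in the ANGPTL4 library, from 102 reads. The intervals of the levels, 3.09 to 4.13 RPKM and 3.21 to 4.77 RPKM, overlapped widely. Its ratio was 1.10 (0.854 to 1.40), and its log2 ratio was 0.11 as deposited and -0.029 after rescaling to a fixed total. The interval excludes a 2-fold difference of MTF1 in counting terms.

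In both libraries the order of levels began with MT2A, MT1X and MT1E. In the control each of these was above the next beyond the counting intervals. In the ANGPTL4 library MT1X, at 33.6 to 44.4 RPKM, and MT1E, at 23.9 to 35.8 RPKM, had overlapping intervals, so their order there was not resolved. MT1F, MTF1 and MT1A came next in both libraries and did not differ from each other beyond their intervals in either. The intervals do not cover the dependence of this order on the annotated exon lengths.

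The family total was lower in the ANGPTL4 library, and its make-up was different. Summed over the 9 metallothioneins the level was 659.1 RPKM with empty vector and 483.8 RPKM with ANGPTL4, a ratio of 0.734. In reads at the exon lengths nearest to GENCODE the sums were 5785 and 2050, or 0.0880% and 0.0634% of all reads, with a ratio of 0.720 (0.685 to 0.758). With the fewest reads the steps allow, the sums were 5227 and 1934 and the ratio 0.752 (0.713 to 0.793). MT2A made up 77.7% of the summed RPKM with empty vector and 84.3% with ANGPTL4. MT1X made up 14.9% and 8.0%, whereas the share of MT1E was 6.25% and 6.08%. Without MT1X the ratio of the sums was 0.793, and without MT2A it was 0.518.

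Comparison of members within a library removes the scaling between libraries. The level of MT1X was 19.2% of that of MT2A with empty vector and 9.49% with ANGPTL4. The ratio of these, 0.495, had a counting interval of 0.420 to 0.582, or 0.394 to 0.618 with the fewest reads the steps allow for MT1X. MT1X was therefore lower relative to MT2A in the ANGPTL4 library by more than counting error. For MT1E the corresponding levels were 8.04% and 7.21% of MT2A, with a ratio of 0.896 (0.701 to 1.14). For MT1F the ratio was 1.23 (0.737 to 2.01) and for MT1A 1.82 (0.456 to 6.69), so for these 3 genes a difference from MT2A was not detectable.

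**Figure D3:**
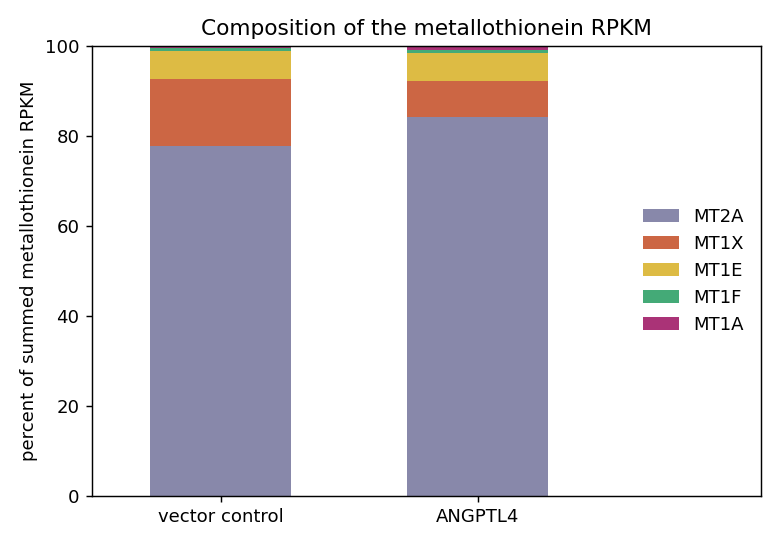
Share of the 5 measured members in the summed metallothionein RPKM of each library, in percent. MT2A is the largest part in both bars, and the part of MT1X is 14.9% in the vector control library and 8.0% in the ANGPTL4 library.

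All 9 metallothioneins lie within 76.0 kb on chromosome 16, from the start of MT2A to the end of MT1X. Members listed at 0 and expressed members lay interspersed along the cluster. MT2A and MT1E lie towards one end, and MT1X lies at the other, next to MT1H, which was listed at 0. Of the other metallothionein genes and pseudogenes looked for, 10 of 11 were listed at 0 in both libraries, including MT3 and MT4 on the MT2A side, MT1B, MT1JP, MT1DP and MT1CP between the members, and the pseudogenes MT1XP1 and MT2P1 elsewhere in the genome. The exception was MTL5, a gene of another family on chromosome 11 that was named for its likeness to metallothioneins, at 2.03 and 1.91 RPKM. No row with a value above 0 overlapped the region of any of the 10 members.

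Genes on either side of the cluster showed no 2-fold difference. Of the 10 flanking genes on the list 7 were measured, 5 lower and 2 higher in the ANGPTL4 library, beside 64.4% lower among all measured genes, with a median log2 ratio of -0.14 that became 0.016 after upper-quartile scaling. NUP93, a nuclear pore gene and the neighbour of MT1X, was at 24.2 and 21.9 RPKM (ratio 0.906, 0.833 to 0.985, or 0.804 to 1.02 at the smallest exon length). On the MT2A side, BBS2, a ciliary gene, was at 5.09 and 4.23 RPKM, OGFOD1, a prolyl hydroxylase gene, at 11.0 and 10.3 RPKM, and NUDT21, a gene of 3' end processing, at 39.5 and 40.7 RPKM. Farther on the MT1X side, HERPUD1, a gene of the endoplasmic reticulum stress response, was at 14.5 and 11.3 RPKM and NLRC5, a regulator of HLA class I genes, at 1.09 and 1.27 RPKM. The intervals of MT1X, 0.338 to 0.458, and of NUP93 did not overlap.

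**Figure D4:**
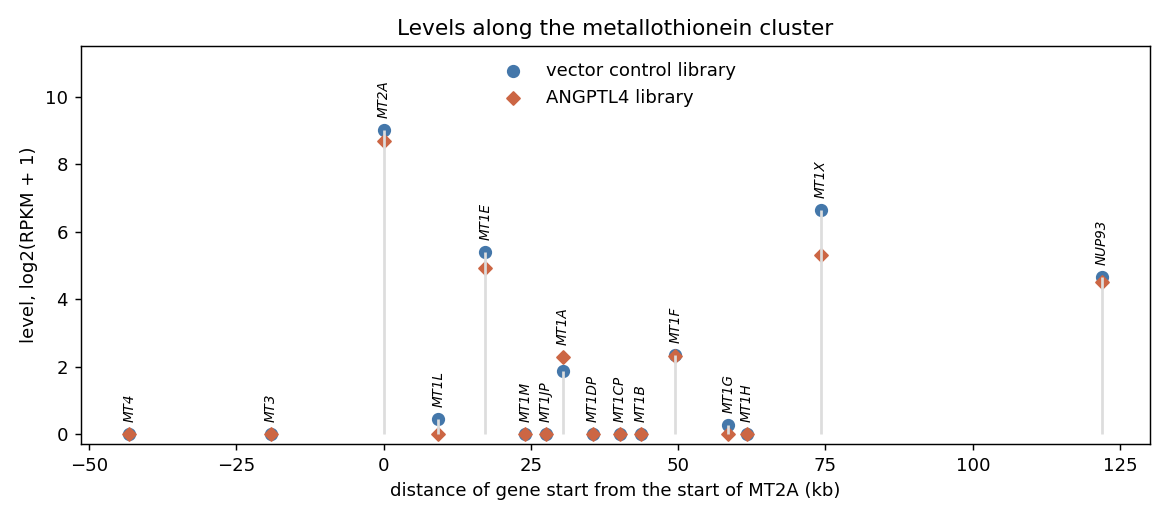
Level as log2(RPKM + 1) in both libraries against the distance of each gene start from the start of MT2A in kilobases, for the metallothionein cluster and NUP93. Genes at 0 lie between the expressed ones, and the gap between the libraries is widest at MT1X, 74.2 kb from MT2A.

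Zinc transporters are read here against all measured genes, of which 64.4% were below their control value, with a median log2 ratio of -0.11. Among the SLC30 family, which exports zinc from the cytosol, all 5 measured members were below their control value, with a median log2 ratio of -0.34 and none past 2-fold. That median ran from -0.48 to -0.19 over the alternatives. SLC30A1, the exporter of the cell surface and an MTF1 target, was at 9.26 RPKM with empty vector and 7.12 RPKM with ANGPTL4 (ratio 0.769, 0.621 to 0.947). That ratio was close to the ratio of MT2A, 0.796, and within its interval. Such closeness was not particular to SLC30A1, since the ratio of the flanking gene HERPUD1 was 0.779. SLC30A6 and SLC30A5, which act together in the secretory pathway, had levels of 10.2 and 6.37 RPKM (SLC30A6) and of 5.76 and 4.33 RPKM (SLC30A5). The ratio was 0.627 (0.502 to 0.777) for SLC30A6. For SLC30A5 it was 0.752 (0.575 to 0.974, or 0.465 to 1.18 at the smallest exon length). SLC30A7, a Golgi transporter, was at 5.21 and 4.25 RPKM (ratio 0.814, 0.650 to 1.01) and SLC30A9 at 7.05 and 6.29 RPKM (ratio 0.892, 0.730 to 1.09). The intervals of SLC30A7 and SLC30A9 included 1, so a difference of these genes was not resolved.

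Among the SLC39 importers, which bring zinc into the cytosol, 8 of 12 measured members were lower and 4 higher, a share near the 64.4% of all measured genes. The median log2 ratio was -0.25 as deposited, -0.12 after upper-quartile scaling and -0.10 when centred within exon length classes. By the size rule none was past 2-fold, though the plain ratio of SLC39A2, given below, was. With a pseudocount of 0.1 RPKM, and when centred within exon length classes, 1 was 2-fold higher. SLC39A14, which also carries iron and manganese, was at 13.4 and 7.71 RPKM (ratio 0.576, 0.483 to 0.682). SLC39A10, which zinc represses through MTF1, was at 12.1 and 8.67 RPKM (ratio 0.716, 0.604 to 0.844). SLC39A4, a surface importer, was higher in the ANGPTL4 library, at 9.73 and 14.9 RPKM (ratio 1.53, 1.29 to 1.81). SLC39A2 was at 0.290 and 1.37 RPKM from 3 and 7 reads, with a ratio of 4.74 (1.08 to 28.4).

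Of 6 measured MTF1 targets outside the family, a list that shares SLC30A1 and SLC39A10 with the transporters, 4 were lower and 2 higher, again near the 64.4% of all measured genes that were lower. The median log2 ratio was -0.21 as deposited and -0.068 after upper-quartile scaling. SEPW1, a selenoprotein gene, was at 18.8 and 13.8 RPKM (ratio 0.735, 0.602 to 0.893). NDRG1 was at 82.2 and 95.1 RPKM (ratio 1.16, 1.11 to 1.21) and CSRP1 at 7.65 and 7.73 RPKM. The list thus held ratios on both sides of 1, and no member was 2-fold different. Of 6 partners of MTF1, 2 were lower and 4 higher, beside 35.6% higher among all measured genes, and none was past 2-fold, with a median of 0.083 that became -0.078 after rescaling to a fixed total. The acetyltransferase gene EP300 was at 13.5 and 13.2 RPKM and its relative CREBBP at 5.43 and 6.55 RPKM. USF1 was at 7.62 and 7.55 RPKM, and HIF1A, the hypoxia factor, at 97.6 and 124.2 RPKM (ratio 1.27, 1.20 to 1.34).

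Copper genes had, in the RPKM as deposited, the lowest median of the lists of metal transport and storage. Of 11 measured members 9 were lower and 2 higher, beside 64.4% and 35.6% of all measured genes, with a median log2 ratio of -0.46. Among the 11, 1 was at least 2-fold lower by the size rule, beside 1.91% of all. That gene was COX11, a copper chaperone of cytochrome c oxidase, at 6.83 and 2.70 RPKM (ratio 0.395, 0.300 to 0.513), and no gene of the list was 2-fold lower with a pseudocount of 5 RPKM or under 4 of the 5 other scalings, while 2 were after rescaling to a fixed total and 3 with a pseudocount of 0.1 RPKM. SLC31A1, the main copper importer, was at 5.78 and 2.44 RPKM (ratio 0.423, 0.296 to 0.592). Its plain ratio was past 2-fold, but its log2 ratio of (RPKM + 1), -0.98, was just inside the size rule. ATP7B, a copper pump, was at 1.58 and 2.17 RPKM, and SOD1, the copper and zinc superoxide dismutase, at 55.7 and 60.2 RPKM (ratio 1.08, 0.954 to 1.22). Exon lengths of these genes were those nearest to GENCODE among several that satisfied the steps, and at the smallest lengths the interval of COX11 was 0.265 to 0.573 and that of SLC31A1 0.251 to 0.681.

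**Figure D5:**
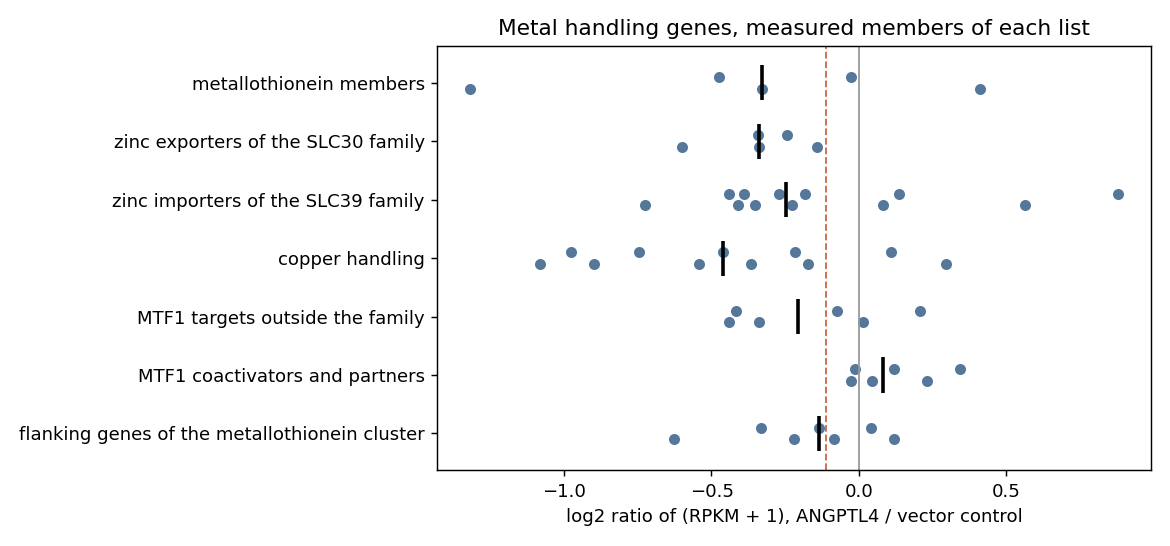
Log2 ratio of (RPKM + 1), ANGPTL4 library over vector control library, of each measured gene in 7 lists, with 1 point per gene, a black bar at each list's median and a dashed line at the median of all measured genes, -0.11. MT1X and COX11 are the only points at or below -1, and no point reaches 1.

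Genes whose levels in the 2 libraries were most like those of a member were found by distance on the log2(RPKM + 1) scale over both libraries. Nearest to MT2A were KRT17, at a distance of 0.134, RPLP0 at 0.138 and RPL35 at 0.204. For MT1X the nearest were RPS14, at 100.2 and 40.7 RPKM and a distance of 0.077, GLUD1 at 0.25 and RPS15A at 0.305. For MTF1 the nearest were CRTC1 at 0.0090, TRIP4 at 0.014 and PITPNM2 at 0.015. With 2 libraries this likeness describes a level and a ratio only.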

How the data were processed

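Total RNA of 2 BFTC 905 lines (TRIzol, per the labels' protocols) gave 1 library for each group, assigned by the transfection in the labels. The authors deposited RPKM per gene row, per the file headers, and the submitters' processing notes name hg19. How reads were aligned and counted, on which annotation, at what read length and with which use of strand is not given in the sources used here. The 57773 rows were summed by symbol, with starts converted to count from 1. Spreadsheet dates were kept as they stood.

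Each library's total was the smallest number searched at which all 13 mitochondrial protein genes became whole reads (tolerance 0.0001). Multiples of such a number also give whole reads, so totals and recovered reads are the smallest that fit. A member's exon length was taken as the number of bases giving whole reads in both libraries (tolerance 0.001) that lay nearest to the GENCODE release 29 length. It equalled that length for 6 of 8 members with reads, and differed for MT1X and MT1F. Ratio intervals were conditional binomial intervals from reads and depths. The size rule, the ratio intervals and the recovery of reads were tested on simulated data (Python 3.11.15, pandas 2.3.3, scipy 1.17.1). The library totals and the true exon length were supplied there. The recovery of the totals and the choice of length for MT1X and MT1F were therefore not tested.

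Named were all members, ANGPTL4, SLC30A1, measured flanking genes, the 2 highest and 2 lowest of each list by log2 ratio, and the 3 genes nearest to MT2A, MT1X and MTF1. Marker genes and MT2P1 and similar silent rows were added; a flanking gene and a marker gene are counted in their lists but not reported here. Members and lists were chosen with earlier results of these data known. Alternatives were pseudocounts of 0.1 and 5, other minimums, 4 scalings, centring by exon length class (90.6% of measured genes had a length), sums without MT2A or MT1X, and shares in reads.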

Additional observations from a re-analysis of the deposited data

How the results depend on the processing

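MT1X was the only metallothionein at least 2-fold lower, and none was 2-fold higher, under all 9 alternatives to the pseudocount, minimum and scaling. Scaling moved the median of all measured genes by between -0.14 and 0.13 on the log2 scale, and of the genes past 2-fold 61.6% were lower as deposited, 43.3% after centring on the median gene, 43.3% after upper-quartile scaling and 76.0% after rescaling to a fixed total. The log2 ratio of MT2A, which is also the median of the measured members, was -0.22 when centred on the median gene, -0.17 after upper-quartile scaling, -0.50 after rescaling to a fixed total, -0.22 with ribosomal protein, mitochondrial and small RNA genes left out, and -0.17 when centred within its exon length class. In the same order the ratio of the summed metallothioneins was 0.793, 0.820, 0.652, 0.791 and 0.816. It was 0.518 without MT2A and 0.793 without MT1X, and 0.752 with the fewest reads allowed, an alternative chosen after seeing the data. With a minimum of 5 RPKM, which leaves 3 members, the median was -0.47. The median of the copper list was -0.25 with a pseudocount of 5. Shares were also counted in reads at the exon lengths nearest to GENCODE, where genes with a longer exon length weigh more. In the control and ANGPTL4 libraries they were 0.121% and 0.244% for MT1A and 4.93% and 4.88% for MT1E. They were 0.933% and 1.27% for MT1F and 18.4% and 10.0% for MT1X. For MT2A the share was 75.6% in the control. The read shares depend on the lengths taken. At the smallest lengths allowed, MT1X would hold 531 of 5227 family reads in the control and 103 of 1934 in the ANGPTL4 library. MT2A would hold 4375 and 1713 of them. The cause of these shifts was not tested beyond the construction of each alternative. No paired analysis was possible because each group has 1 library. Depth limits MT1A, MT1F and the 4 lowest members, whose differences could not be resolved.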

Other observations

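Among iron genes, listed because ferritin and metallothionein both hold metal, 6 of 7 measured members were lower in the ANGPTL4 library and 1 was higher, where 64.4% of all measured genes were lower. The median log2 ratio was -0.24 as deposited and -0.10 after upper-quartile scaling. By the size rule none was past 2-fold, though the plain ratio of ACO1, given below, was. With a pseudocount of 0.1 RPKM, 1 was 2-fold lower. The heavy and light chains of ferritin had ratios on opposite sides of 1. FTH1 was at 933.8 RPKM with empty vector and 1318 RPKM with ANGPTL4 (ratio 1.41, 1.37 to 1.45), and FTL at 911.8 and 710.4 RPKM (ratio 0.779, 0.740 to 0.820). FTL was added to the named genes after its value was seen. Both chains have processed pseudogenes, so the split of their reads between loci is uncertain. ACO1, the iron-responsive aconitase, was at 3.39 and 1.60 RPKM (ratio 0.472, 0.324 to 0.672), the transferrin receptor gene TFRC at 56.3 and 40.3 RPKM (ratio 0.717, 0.667 to 0.770) and the iron importer gene SLC11A2 at 10.1 and 8.75 RPKM.

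Glucocorticoid genes, listed because MT2A and MT1X respond to that hormone, had 4 of 7 measured members lower and 3 higher, beside 64.4% lower among all measured genes, and a median of -0.053 that lay between -0.18 and 0.29 over the alternatives and was above 0 in several. By the size rule none was past 2-fold, though the plain ratio of TSC22D3 was. With a pseudocount of 0.1 RPKM, 1 was 2-fold lower. TSC22D3, a classical responder, was at 1.31 and 0.584 RPKM (ratio 0.446, 0.191 to 0.932). The phosphatase gene DUSP1 was at 4.37 and 2.76 RPKM (ratio 0.631, 0.350 to 1.09). The clock gene PER1 had 92 and 65 reads (ratio 1.44, 1.03 to 1.99), and the receptor gene NR3C1 was at 12.2 and 15.1 RPKM (ratio 1.24, 1.10 to 1.40).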
